A study of Mus musculus with 22 samples.

Results

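This account compares wild-type (WT) mouse embryonic stem (ES) cells depleted of all 3 heterochromatin protein 1 (HP1) paralogs with the same cells depleted of 1 paralog at a time, to ask what the loss of 3 adds to the loss of 1. The members are cassette exons, exons that a transcript can include or skip, and 4655 of the 10873 exon events in the series were compared. An event was taken when it was listed for all 4 knock-down groups (6322 events) and had at least 20 informative reads in the triple knock-down and at least 20 in the sum of the 3 single knock-downs. Informative reads are those that fit inclusion alone or skipping alone. The remaining 1667 events listed for all 4 groups fell below that minimum and were not compared. The 4655 compared events hold 4473 distinct exons of 2710 genes, and 4541 lie in a single gene, 97 in none and 17 in several.

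The cells were R1 ES cells, grown on gelatin with leukaemia inhibitory factor (LIF) and without feeder cells. For a single knock-down they received siRNA (short RNAs that direct the cleavage of a matching transcript) at 90 nM. The target was Cbx5, which encodes HP1alpha, Cbx1, which encodes HP1beta, or Cbx3, which encodes HP1gamma. For the triple knock-down they received the 3 siRNAs together at 60 nM each. All 4 groups were transfected with Lipofectamine 2000, RNA was taken 48 h later, and libraries were read as 101-base pairs on a HiSeq 2000. The triple group therefore had less siRNA per target and more siRNA in all than a single group, and the number of paralogs targeted cannot be told apart from these doses. The labels name no control siRNA. The 8 samples (of 22 in the series) are 2 replicates in each of 4 groups, but the authors pooled the replicates of a group before deposit. Each group is thus 1 library, every test compares libraries and not conditions, and intervals cover counting error only. Untransfected WT cells and TKO cells, which lack the DNA methyltransferases Dnmt1, Dnmt3a and Dnmt3b, were read as 50-base single reads. They enter no test and are given only as values beside the 4 libraries. So is the triple knock-down in TKO cells (80, 80 and 120 nM against HP1alpha, HP1beta and HP1gamma).

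HP1 proteins bind histone H3 methylated at lysine 9 through a chromodomain, and a second domain, the chromoshadow domain, forms dimers and recruits partner proteins. The 3 mammalian paralogs share this build and can pair with each other, while their places in the nucleus overlap only in part: HP1alpha and HP1beta are best known from constitutive heterochromatin, and HP1gamma is also found in the bodies of transcribed genes. Splicing is largely carried out while a gene is being transcribed, and HP1 proteins have been linked to the choice of alternative exons through their position on chromatin.

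The triple knock-down was the shallowest library, with 4677236 reads over exon events against 9750348 for HP1alpha, 8907552 for HP1beta and 7383028 for HP1gamma. Over the tested exons the median number of informative reads was 77 in the triple knock-down and 152, 134 and 109 across the singles (HP1alpha, HP1beta, HP1gamma), or 399 in their sum. The 4 libraries had between 3.08 and 3.22 inclusion reads per skipping read over all their events, against 6.25 in untransfected WT. The ES-cell markers Klf4, Sall4, Tcl1 and Zfp42 had events read in all 4 libraries at 185 RPM or more (RPM, reads per 1000000, here a gene's largest event over all event reads in its library). Tbx3, another pluripotency gene, had 79.9, 85.4 and 86.4 RPM in the HP1alpha, HP1beta and HP1gamma libraries and 112 in the triple (limma, unadjusted p 0.0169, adjusted p 0.999). Fn1, 1 of 5 genes of the differentiated-cell list with an event in all 4, stood at 344 to 433 RPM in the single and 395 in the triple knock-down. Fn1 does not stand for that list. The median difference in log2(RPM + 1), triple minus singles, was 0.19 over its 5 genes and 0.08 at Fn1. It was 0.10 over 10 pluripotency genes and 0.076 over all 3337 genes.

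The targeted genes were read first, in RPM of the gene's largest exon event. Cbx5 had 43.0 RPM for HP1alpha, 110 for HP1beta, 105 for HP1gamma and 56.2 for the triple. Cbx1 had 1522 RPM for HP1alpha, 507 for HP1beta, 1625 for HP1gamma and 551 for the triple. Cbx3 had 49.6 RPM for HP1alpha, 52.2 for HP1beta, 32.2 for HP1gamma and 36.1 for the triple. For each gene the triple library thus lay near the library that targeted the gene alone and below those that did not.

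The ratio of the triple knock-down to the 2 singles aimed at other paralogs was 0.522 (95% interval 0.457 to 0.594) for Cbx5, 0.352 (0.338 to 0.366) for Cbx1 and 0.710 (0.600 to 0.838) for Cbx3. Against the single knock-down of the same gene it was 1.31 (1.12 to 1.53) for Cbx5, 1.09 (1.03 to 1.14) for Cbx1 and 1.12 (0.915 to 1.37) for Cbx3. In RPM the triple knock-down thus had more Cbx5 and Cbx1 event reads than the single ones, beyond counting error, and for Cbx3 the interval includes 1. Over all 3337 genes the triple stood a median of 0.076 above the singles in log2(RPM + 1). The median was 0.03 for genes at 200 RPM or more in the singles, the class that holds Cbx1. The ratios do not remove these offsets, and whether the excess at Cbx5 or Cbx1 reflects a weaker knock-down was not tested. By these ratios, taken against the singles aimed at other paralogs, the reduction was partial for all 3 genes. Untransfected WT had 113 RPM for Cbx5 and 615 for Cbx1. The 551 of the triple for Cbx1 was thus near untransfected WT, though far below the 1522 and 1625 of the HP1alpha and HP1gamma libraries. Cbx3 had 457 RPM in untransfected WT and at most 52.2 in these 4 libraries, also where it was not targeted. Transfection and platform cannot be told apart in these comparisons with untransfected WT. Whether protein followed these values was not measured.

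**Figure D1:**
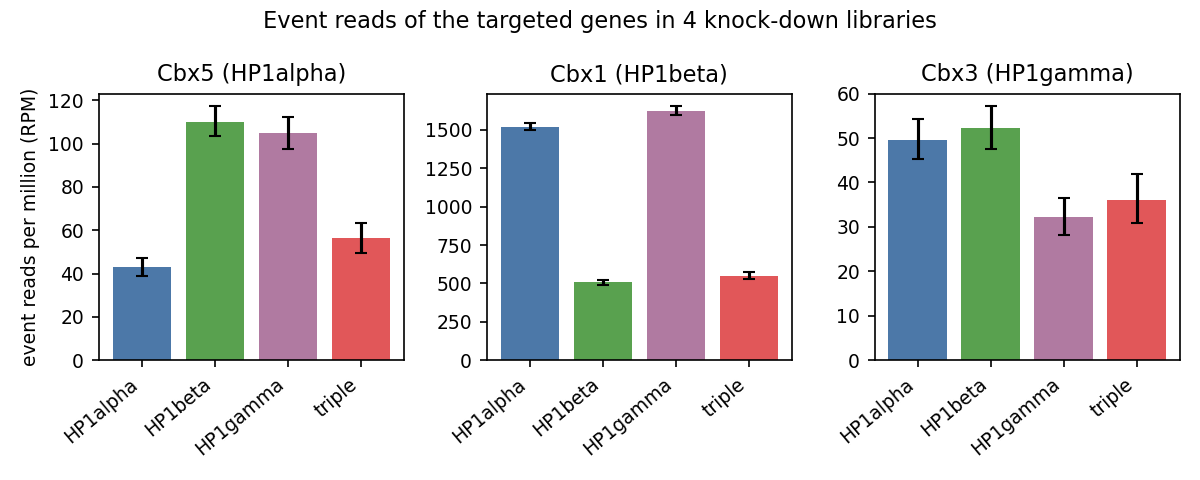
Event reads of the 3 targeted genes in RPM (bars) with exact Poisson 95% intervals, in the HP1alpha, HP1beta, HP1gamma and triple knock-down libraries. Each gene is lowest in the library that targeted it, and the triple library lies close by, from 36.1 for Cbx3 to 551 for Cbx1.

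At the great majority of exons, inclusion in the triple knock-down was close to that in the single ones. The inclusion level is the authors' estimate, from 0 to 1, of the share of transcripts that hold the exon, and the level of the singles is the mean of their 3 levels weighted by informative reads. The difference, triple minus singles, had a median of -0.003 and a median size of 0.017. Most of the exons, 3756 of 4655, had under 0.1 or over 0.9 of their informative reads for inclusion in the singles. The median size was 0.031 at levels of 0.1 to 0.5 in the singles and 0.043 at 0.5 to 0.9. In these 2 classes 12.0% and 15.8% of exons differed by at least 0.1. An exon was called where Fisher's exact test on its inclusion and skipping reads gave a Benjamini-Hochberg adjusted p of at most 0.05 over all 4655 exons and its level differed by at least 0.1. The call rule took 2 of 4655 exons (0.043%), a 15-nucleotide exon of Immt and a 130-nucleotide exon of Tjap1, both lower in the triple knock-down. An exon in Tpt1 also passed the test, with a difference in level of 0.03. At an unadjusted p under 0.05 there were 125 exons (2.69%), with a higher inclusion share in the triple knock-down in 57 and a lower one in 68. The inclusion share is the part of an exon's informative reads that support inclusion.

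**Figure D2:**
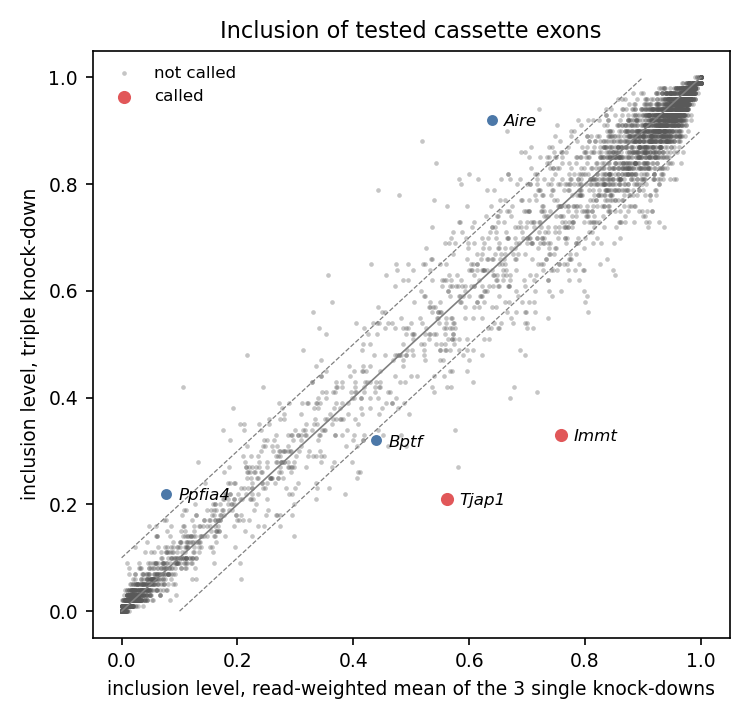
Deposited inclusion level of each of the 4655 tested exons in the triple knock-down (vertical) against the read-weighted mean of the 3 single knock-downs (horizontal). The solid line marks equal levels and the dashed lines a difference of 0.1. The 2 called exons, red, are Immt and Tjap1, and 3 further exons discussed in the text are in blue.

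The Immt exon lies on chromosome 6 (71866726 to 71866740, plus strand, mm10), between introns of 3455 and 1839 nucleotides. Immt encodes the core subunit of MICOS, the complex that shapes the cristae of the inner mitochondrial membrane. Its level was 0.82 for HP1alpha (387 inclusion and 62 skipping reads), 0.28 for HP1beta (45 and 63), 0.83 for HP1gamma (295 and 44) and 0.33 for the triple (38 and 45). The exon was thus mostly included under the HP1alpha and HP1gamma knock-downs and mostly skipped in both libraries that received the HP1beta siRNA. Against the sum of the singles the level was 0.43 lower and the inclusion share 0.35 lower (95% interval of the difference in share -0.46 to -0.24), with an adjusted p of 5.69e-08 in Fisher's exact test. The call was not made by limma on the 4 libraries' logits, where the spread among the singles enters (adjusted p 0.626), nor by intervals apart, since the triple's (0.25 to 0.42) overlapped that of HP1beta (0.20 to 0.35).

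Taken against each single knock-down, the Immt exon was called lower in the triple than in the HP1alpha (adjusted p 4.36e-11, exact test) and the HP1gamma knock-down (1.16e-10). Against HP1beta the inclusion share differed by 0.041, with an interval of -0.098 to 0.180 and an unadjusted p of 0.659. The HP1beta knock-down itself was 0.54 lower in level than the HP1alpha and HP1gamma ones together (adjusted p 1.87e-19, exact test). At this exon the difference between the triple and the summed singles is therefore one that the HP1beta library shows without the siRNAs against HP1alpha and HP1gamma. In libraries outside this comparison the exon was nearly absent: its level was 0.00 in untransfected WT (0 inclusion and 69 skipping reads) and 0.01 in the triple knock-down in TKO cells (0 and 80), which was read on the same platform as the 4 libraries here. The event's 15 nucleotides are shorter than a read's length in either platform, and the alignment settings for such short exons were not examined.

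The Tjap1 exon lies on chromosome 17 (46271800 to 46271929, minus strand). Tjap1 encodes a protein of tight junctions. Its level was 0.51 for HP1alpha (76 inclusion and 13 skipping reads), 0.52 for HP1beta (88 and 14), 0.71 for HP1gamma (55 and 4) and 0.21 for the triple (26 and 18). Here the triple library stood below all 3 singles, and its deposited interval (0.12 to 0.33) overlapped none of theirs. It was the only one of the 4655 exons with intervals apart from all 3 and a difference of at least 0.1 (0.0215%).

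The Tjap1 level was 0.35 lower than in the singles and the share 0.29 lower (-0.44 to -0.14), with an adjusted p of 0.0354 in Fisher's exact test and 0.477 in limma on the logits. Against single libraries the adjusted p was 0.867 for HP1alpha, 0.790 for HP1beta and 0.0761 for HP1gamma, so no comparison with 1 library passed. The call also rests on the HP1alpha and HP1gamma libraries: without HP1alpha in the sum the adjusted p was 0.0516, and without HP1gamma it was 0.205. The level was 0.61 in untransfected WT and 0.68 in the triple knock-down in TKO cells (68 inclusion and 5 skipping reads). The same 3 siRNAs in TKO cells thus left the exon at a level inside the range of the WT single knock-downs.

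The Tpt1 exon (chromosome 14, 75845617 to 75845690, plus strand) had the second smallest p. Tpt1 encodes an abundant, conserved protein known as translationally controlled tumour protein, and the gene has processed pseudogene copies, so the origin of its reads is uncertain. Its inclusion share was 0.276 for HP1alpha (149 inclusion and 391 skipping reads), 0.586 for HP1beta (418 and 295), 0.534 for HP1gamma (374 and 326) and 0.639 for the triple (248 and 140). The HP1alpha library stood apart from the other 3, and the levels were all low, at 0.04, 0.10, 0.09 and 0.11 in the same order. The adjusted p of 3.94e-05 against the summed singles (exact test) became 1 without the HP1alpha library. Untransfected WT had a level of 1.00 from 28735 inclusion reads and no skipping read. The triple knock-down in TKO cells, on the same platform as the 4 libraries, also had no skipping read. It had 89 inclusion reads there but a level of 0.07, so level and inclusion share part at this exon.

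**Figure D3:**
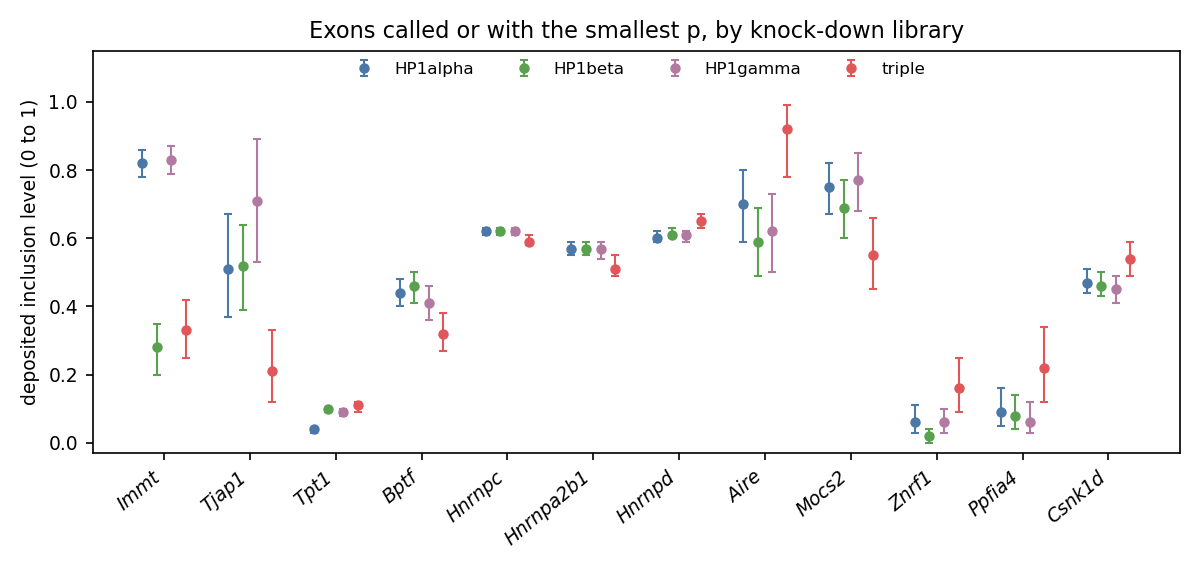
Deposited inclusion level (points) and deposited interval (bars, level not stated) of 12 exons, the called ones and others of small p, in the HP1alpha, HP1beta, HP1gamma and triple knock-down libraries. At Immt the triple (0.33) lies beside HP1beta (0.28), at Tjap1 (0.21) it lies below all 3 singles, and at Tpt1 only HP1alpha (0.04) stands away from the rest.

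Each single knock-down was also set beside the triple by itself. The triple library had 1 called exon of 4653 against HP1alpha (0.0215%), 0 of 4647 against HP1beta (0%) and 1 of 4599 against HP1gamma (0.0217%), the called exon being that of Immt in both cases. At an unadjusted p under 0.05 in Fisher's exact test there were 113, 115 and 120 exons. These 3 comparisons share the triple library.

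Exons that separated the singles from each other were also few. Each single was compared with the sum of the other 2 under the same rule. HP1alpha had 0 called exons of 4652 (0%) and 138 at an unadjusted p under 0.05 in the exact test, HP1beta had 2 of 4647 (0.043%) and 150, and HP1gamma had 0 of 4599 (0%) and 144. The called HP1beta exons were Immt and a 295-nucleotide exon of Zmym3. The mean chi-square per exon, which is near 1 where only read sampling separates 2 samples, was 1.27 for the triple against the singles over 1217 exons, and 1.24, 1.32 and 1.27 for HP1alpha, HP1beta and HP1gamma against the other 2. The single libraries are deeper than the triple one, so these counts are not at equal depth.

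The Zmym3 exon (X chromosome, 101416167 to 101416461) belongs to a zinc-finger gene whose protein is found in histone deacetylase complexes. Its level was 0.65 for HP1alpha (178 inclusion and 8 skipping reads), 0.36 for HP1beta (111 and 21), 0.71 for HP1gamma (109 and 4) and 0.61 for the triple (82 and 5). HP1beta was lower than the other 2 singles with an adjusted p of 0.0465 in Fisher's exact test. The triple knock-down, which also received the HP1beta siRNA at the lower dose, had a level nearer to the other 2 singles, and its inclusion share was 0.10 above that of HP1beta (0.014 to 0.181, unadjusted p 0.0313 and adjusted p 1).

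A chi-square comparison of the 3 single libraries over 1412 exons with enough reads found 8 exons that differed among them at an adjusted p of at most 0.05. They lie in Immt, Tpt1, Zmym3, Rsrc2, the non-coding RNA gene Meg3, the splicing factor gene Srsf7, the actin gene Actb and the ribosomal protein gene Rps9. The inclusion share of the triple knock-down lay within the range of the 3 singles at 6 of them, above it at Tpt1 and below it at Rsrc2. The Rsrc2 exon had shares of 0.195 for HP1alpha, 0.0892 for HP1beta, 0.219 for HP1gamma and 0.0880 for the triple. As at Immt, both libraries with the HP1beta siRNA were the low ones, and the triple differed from HP1beta by -0.0012 in share (-0.047 to 0.051). Rsrc2 was not called against the summed singles (adjusted p 0.966, exact test).

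Many genes for splicing regulators are themselves alternatively spliced. None of the 85 exons tested from 38 genes for hnRNP proteins and related regulators was called, beside 0.043% of all exons, and 5 (5.88%) had an unadjusted p under 0.05, beside 2.69% of all exons. The median size of the difference in level was 0.017 in the list and 0.017 over all exons. A 26-nucleotide exon of Hnrnpc (chromosome 14, 52098015 to 52098040), which encodes a protein that packages nascent transcripts, had levels of 0.62, 0.62 and 0.62 across the singles (HP1alpha, HP1beta, HP1gamma) and 0.59 in the triple. With 5464 informative reads in the triple its share was 0.026 lower (-0.040 to -0.012), and the adjusted p was 0.183 in the exact test. A 120-nucleotide exon of Hnrnpa2b1 had a level of 0.57 in each single and 0.51 in the triple (adjusted p 0.455), and a 57-nucleotide exon of Hnrnpd had levels of 0.60, 0.61 and 0.61 against 0.65 (adjusted p 1). These 3 exons were named for small p in this comparison, a choice that favours exons where the triple lies outside the singles. The singles lie close together and the triple outside them, by 0.03 to 0.06 in level, and none passed the adjusted test.

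None of the 37 exons of SR proteins and their kinases was called (all exons, 0.043%), and 1 (2.70%) had an unadjusted p under 0.05 (all exons, 2.69%). In Clk4, which encodes a kinase of SR proteins, the level was 0.77, 0.74 and 0.75 across the singles (HP1alpha, HP1beta, HP1gamma) and 0.65 in the triple (adjusted p 1, exact test). None of the 37 exons of core spliceosome genes was called (all exons, 0.043%), and 1 (2.70%) had an unadjusted p under 0.05 (all exons, 2.69%). It lies in U2surp, a gene for a protein associated with the U2 particle, with levels of 0.96, 0.98 and 0.98 across the singles and 0.92 in the triple (unadjusted p 0.0441, exact test). An exon of U2af1l4, a relative of the small subunit of the factor that recognises the end of an intron, had levels of 0.90, 0.89 and 0.92 against 0.74, from 3 skipping and 61 inclusion reads in the triple (unadjusted p 0.0636).

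Genes that work with HP1 on chromatin showed no called exon either. With 0.043% of all exons called, a list of this size would seldom hold one, here and at the other gene lists. Of 51 listed partners of HP1 and enzymes of H3 lysine 9 methylation, 26 genes gave 50 tested exons. Of these 0 were called (all exons, 0.043%) and 2 (4%) had an unadjusted p under 0.05 (all exons, 2.69%), and the median size of the difference was 0.027 (all exons, 0.017). A 57-nucleotide exon of Pphln1, a subunit of the HUSH silencing complex, had levels of 0.20, 0.17 and 0.26 across the singles (HP1alpha, HP1beta, HP1gamma) and 0.06 in the triple, where it had 1 inclusion and 19 skipping reads (adjusted p 1, exact test). An exon of Atf7ip, a partner of the methyltransferase SETDB1, had levels of 0.03, 0.02 and 0.02 against 0.07 (adjusted p 1).

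Of 101 exons of other chromatin regulators 0 were called (all exons, 0.043%) and 3 (2.97%) had an unadjusted p under 0.05, near the 2.69% of all exons. A 174-nucleotide exon of Bptf (chromosome 11, 107044492 to 107044665), the largest subunit of the NURF remodelling complex, had levels of 0.44 for HP1alpha (348 inclusion and 152 skipping reads), 0.46 for HP1beta (322 and 145), 0.41 for HP1gamma (248 and 130) and 0.32 for the triple (114 and 94). The triple level was below all 3 singles, though its interval (0.27 to 0.38) overlapped that of HP1gamma (0.36 to 0.46). The share was 0.13 lower (-0.21 to -0.064) with an adjusted p of 0.183. The triple knock-down in TKO cells had a level of 0.30, and untransfected WT had 0.76.

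The other lists gave no call, beside 0.043% of all exons called, a share at which lists of this size would seldom hold one. They were pluripotency genes (15 exons), differentiated-cell markers (11), interferon response genes (9), small RNA pathway genes (8), germline genes (4), DNA damage and cell cycle genes (49) and the HP1 genes themselves (3). Only the DNA damage list had an exon at an unadjusted p under 0.05 in the exact test (2.04% of its exons, beside 2.69% of all), a 412-nucleotide exon of Trp53 with levels of 0.05, 0.06 and 0.05 against 0.08 (adjusted p 1). The largest Cbx3 event had 13 informative reads in the triple knock-down and was not tested.

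Further exons of small p stood outside the lists, and none passed the adjusted test. Znrf1, a ubiquitin ligase gene, had an exon at levels of 0.06, 0.02 and 0.06 across the singles (HP1alpha, HP1beta, HP1gamma) and 0.16 in the triple (13 inclusion and 37 skipping reads, adjusted p 0.379, exact test). A 111-nucleotide exon of Ppfia4, a liprin gene, had levels of 0.09, 0.08 and 0.06 against 0.22 (adjusted p 0.816). A 21-nucleotide exon of Dtnb, a dystrobrevin gene, had no inclusion read in any single library and 4 of 45 in the triple (adjusted p 0.379). These rarely included exons were named for small p, and in each the triple lay above all 3 singles on 4 to 14 inclusion reads. The triple knock-down in TKO cells had levels of 0.03 (Znrf1), 0.07 (Ppfia4) and 0.01 (Dtnb), inside the range of the WT singles. Untransfected WT had 0.12, 0.10 and 0.03 in the same order.

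Lower levels in the triple were seen at a 122-nucleotide exon of Mocs2, which encodes molybdopterin synthase, with 0.75, 0.69 and 0.77 across the singles (HP1alpha, HP1beta, HP1gamma) against 0.55 (adjusted p 1, exact test). The triple knock-down in TKO cells had 0.75 at this exon, inside the range of the WT singles. A 1248-nucleotide exon of Aire shows where level and reads part: its level was 0.70, 0.59 and 0.62 against 0.92, while its inclusion share was above 0.98 in all 4 libraries and differed by 0.0081 (0.0040 to 0.011). The triple had 1055 inclusion reads and no skipping read there, and the singles had 13, 21 and 15 skipping reads. The adjusted p was 0.455.

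A few very short exons separated 1 single knock-down from the rest, and were picked out after their values were seen. A 12-nucleotide exon of Commd6 had levels of 0.92 in the HP1alpha, 0.95 in the HP1beta and 0.91 in the triple knock-down, but 0.18 in the HP1gamma knock-down, from 3 inclusion and 15 skipping reads. These 18 reads are below the minimum of 20, so HP1gamma was not compared with the triple at this exon. An 18-nucleotide exon of Adgrl1 had levels of 0.89, 0.91 and 0.96 in the same libraries and 0.56 in the HP1gamma knock-down, with an adjusted p of 0.0772 for the triple against HP1gamma (exact test). At both exons the triple, which received the HP1gamma siRNA at 60 nM, lay with the libraries that did not target HP1gamma. Untransfected WT had levels of 0.03 and 0.02 at these exons.

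Exon features showed where the small p-values lay. Among exons of at most 27 nucleotides 6 of 93 (6.45%) had an unadjusted p under 0.05, among those of 28 to 60 nucleotides 22 of 482 (4.56%), and in the longer classes between 2.15% and 3.73%. Exons whose length is divisible by 3, which keep the reading frame when skipped, had 75 of 2138 (3.51%), and the others 50 of 2517 (1.99%). The percentage also varied with the level in the singles, from 1.46% at levels over 0.9 to 4.52% at 0.1 to 0.5. The median level in the singles was 0.81 in the first frame class, 0.86 in the second and 0.02 in exons of at most 27 nucleotides. These counts by length and frame were not matched for level. Of the 40 exons with such a p and a level of at most 0.1 in the singles, 33 had a higher share in the triple, and of the 28 with a level over 0.9, 27 had a lower share. Exons near either end can move far in 1 direction only. Differences of at least 0.1 in level occurred at 291 exons (6.25%), and their frequency followed the depth, from 12.4% with 20 to 49 informative reads in the triple to 0.697% with 500 or more.

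How small a difference these reads could show was read from the 95% interval of the difference in inclusion share. Its median width was 0.088, and for 3135 of 4655 exons (67.3%) it lay within 0.1 of 0 on both sides. For 4334 exons (93.1%) it lay within 0.2. Among the 899 exons with an inclusion share of 0.1 to 0.9 in the singles, which are the ones most alternatively spliced, 183 (20.4%) had an interval within 0.1 and 647 (72.0%) within 0.2. For most mid-range exons a difference of 0.1 was therefore not detectable at this depth. Intervals lay wholly beyond 0.1 at Immt, Tjap1 and Tpt1. Just inside the read minimum, 122 events with 20 or 21 reads in the triple had a median size of difference of 0.033, and just outside it 129 events with 18 or 19 reads had 0.035.

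Event reads per gene gave a coarse view of abundance. They stand for a gene's largest event only, and reads from more transcript and from a larger listed event cannot be told apart. Of 3337 genes 0 (0%) passed an adjusted p of 0.05 in limma on log2(RPM + 1), in which the spread comes from the 3 single libraries, which differ in target, and the lone triple library is assumed to vary like them. The lowest adjusted p was 0.955. At an unadjusted p under 0.05, 81 genes were higher and 1 was lower in the triple, beside a median log2 difference of 0.076 over all genes. Scaling that sets this median near 0 gave 39 higher and 9 lower, with 0 called. The median difference was 0.11 for genes under 50 RPM, 0.07 for 50 to under 200 RPM and 0.03 for 200 RPM or more. Every listed event has at least 100 reads in its library, and the triple library is the shallowest. Whether this minimum bears on the differences at low RPM was not tested.

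Plcd3, a phospholipase C gene, had the smallest p: 172 RPM for HP1alpha, 150 for HP1beta, 162 for HP1gamma and 290 for the triple, a log2 difference of 0.85 with a standard error of 0.13 and an adjusted p of 0.955 (limma). Rsrc1, which encodes a splicing-related protein rich in arginine and serine, had 159, 138 and 148 RPM in the same singles and 241 in the triple. Senp6, which removes SUMO chains, had 122, 139 and 118 against 199, and Lbh, the single gene lower at an unadjusted p under 0.05, had 52.9, 58.5 and 76.5 against 37.8. In all 4 genes, which were named for small p, the triple lay outside the range of the singles and the adjusted test was not passed. Without the HP1alpha library 7 genes passed, among them Cbx5, Echdc2, Pcmtd1, Plcd3, Rsrc1 and Slc2a3, and without the HP1beta library 1 (Cbx1). Cbx5 and Cbx1 were lower in the triple, and each appeared when the library that shared its siRNA was left out. On the mean of the singles' log2 values no gene differed 2-fold or more, with Cbx1 nearest at -0.97. The triple knock-down in TKO cells had 77.9 RPM for Plcd3, 106 for Rsrc1, 106 for Senp6 and 15.6 for Lbh. Each of these lay below the WT singles, whereas the WT triple lay below them only at Lbh. Genotype and siRNA doses differ between the 2 triple knock-downs.

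**Figure D4:**
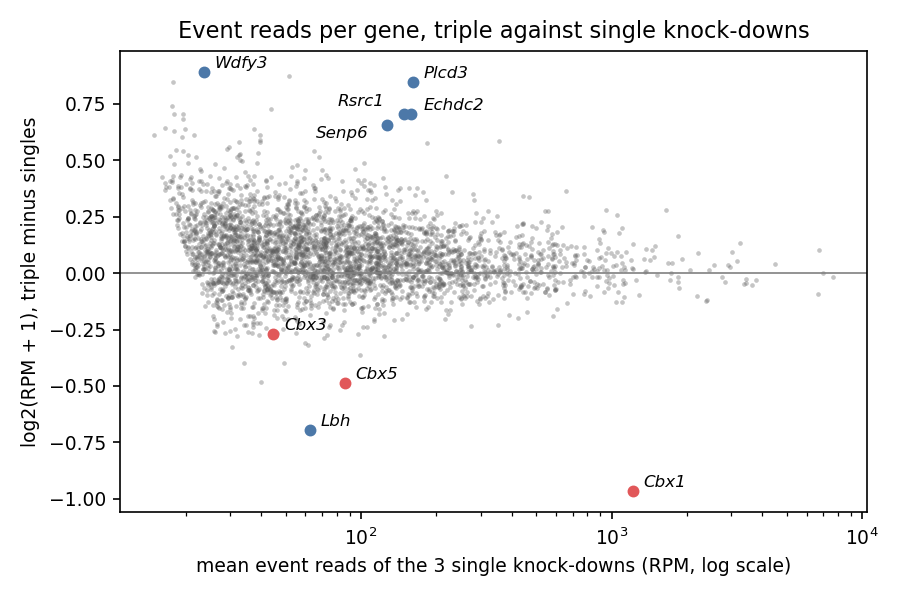
Difference in log2(RPM + 1) of event reads, triple minus the mean of the 3 single knock-downs, for 3337 genes (vertical) against the mean RPM of the singles (horizontal, log scale). The targeted genes are red and genes named for small p are blue. The cloud widens toward low RPM, where its median is 0.11, and Cbx1 is lowest at -0.97.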

How the data were processed

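Per the submitters' processing notes, RNA reads were handled with TopHat2, Bowtie2 and the mm10 build, with no version named. Per the file headers, the authors deposited MISO summaries for skipped exons, 1 per group with replicates pooled. The deposited inclusion level and its interval bounds are a fraction (0 to 1), the posterior mean by MISO. Per the file headers each event also holds deposited read counts per class (inclusion alone, skipping alone, both, neither). Every listed event has at least 100 such reads.

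Events were joined by coordinates and named by the GRCm38.p6 RefSeq span that holds them. Informative reads were compared by Fisher's exact test (two-sided), p-values adjusted by Benjamini-Hochberg (scipy 1.17.1, statsmodels 0.14.6), with Newcombe 95% intervals for differences in share. Event reads per gene were fitted with limma 3.58.1 (trend, pseudocount of 1 RPM), with exact 95% intervals for ratios. The scripts were tested on simulated data. The members and the 12 gene lists were chosen with earlier results of these data known. Exons are named when called, when their intervals stand apart, among the 10 smallest p per direction, or among the 2 smallest p per list, and genes among the 5 smallest p per direction; some of these are not reported here.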

Additional observations from a re-analysis of the deposited data

How the results depend on the processing

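The 2 calls of the triple against the summed singles became 1 with at least 50 informative reads, where Tjap1 drops out. They became 1 when deposited intervals apart replaced the test (Tjap1), and 0 with limma on the logit of each library (lowest adjusted p 0.398, 415 exons at p under 0.05). Leaving out 1 single library gave 1 to 2 calls. No minimum difference, or the difference in share, gave 3, adding Tpt1. A minimum of 10 reads, a difference of at least 0.05 or 0.2, an adjusted p of at most 0.1, an unweighted mean of levels, and a null odds ratio set by exon length each gave 2. With at least 10 reads the triple against HP1gamma had 2 calls (Commd6 added), and HP1gamma against the other singles had 1 (Commd6), the latter setting chosen after seeing the data. Event reads per gene gave 0 to 7 calls when 1 single library was left out, and 0 under other pseudocounts, scalings and filters. Against all 3 singles, the ratio in the triple was 0.674 for Cbx5 and 0.458 for Cbx1. The causes were not tested, except that fewer exons or libraries enter by construction. No result reversed direction. No paired analysis was possible because the replicates were pooled before deposit.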
